A study of Mus musculus with 40 samples.

Results

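The 4 genes Plau, Plat, Plaur and Serpine2 encode the urokinase and tissue plasminogen activators, the receptor that holds urokinase at the cell surface, and a serpin that inhibits both activators. They were chosen by the measured fall of Plau after nephrectomy in whole kidney at 24 and 48 h, together with its fellow activator, receptor and inhibitor genes, and they are 4 of the 28467 genes of the bulk table. The 24 and 48 h bulk values of the members are therefore given as a description without a test, whereas 72 h and the single nuclei, which came from other mice, were tested.

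The right kidney of male C57BL/6 mice aged 8 to 12 weeks was collected after surgical loss of its left counterpart (unilateral nephrectomy, UNx) or after a sham operation that left both kidneys in place. Both groups had isoflurane anaesthesia and buprenorphine. Whole-kidney RNA came from cross sections of 6 sham and 6 UNx mice at each of 24, 48 and 72 h, and nuclei came from 2 sham and 2 UNx mice at 24 h. The labels place the 24 h bulk libraries in batch 1 and the later ones in batch 2, and place the first nucleus mouse of each arm in batch 3 and the second in batch 4, so sham and UNx share a batch in every comparison.

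Plasminogen activators are secreted serine proteases that cut plasminogen, a circulating zymogen made mainly by the liver, into plasmin. Plasmin dissolves fibrin, cuts matrix proteins and activates growth factors and other proteases. Urokinase was first obtained from urine, is made by kidney tubules and acts at the cell surface through its receptor, while tissue plasminogen activator is known from endothelium and binds fibrin. Serpins such as Serpine2 trap both enzymes, and receptors of the LDL receptor family clear the complexes.

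Plau and Plat are related proteases that share a kringle, a disulfide-bonded fold, and their coding sequences were compared to see how far reads could be confused between them. The 2 stretches shown hold the longest run of identical bases in the 2 coding sequences, in capitals, with 45 bases on each side in lower case. Positions count from the first base of the start codon, and the sequences are from the GENCODE M21 transcripts.
Plau coding bases 313 to 416: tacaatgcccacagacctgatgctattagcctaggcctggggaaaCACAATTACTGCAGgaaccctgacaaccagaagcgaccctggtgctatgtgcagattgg
Plat coding bases 472 to 575: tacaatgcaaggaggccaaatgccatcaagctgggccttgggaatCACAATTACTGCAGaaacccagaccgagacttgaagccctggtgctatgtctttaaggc
The identical run is 14 bases long, in coding sequences of 1299 bases for Plau and 1677 for Plat. The longest run shared by any other pair of the 4 genes is 12 bases, between Plau and Plaur. Reads of the bulk libraries were 150 bases long and those of the nuclei 100, so no read that lies within these coding sequences could match 2 members without mismatches along its whole length.

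In GRCm38, the build of the annotation used for names, Plau (ENSMUSG00000021822) lies on chr14:20836660-20843385 on the plus strand and Plaur (ENSMUSG00000046223) on chr7:24462484-24475968 on the plus strand. Plat (ENSMUSG00000031538) lies on chr8:22757727-22782844 on the plus strand and Serpine2 (ENSMUSG00000026249) on chr1:79794197-79861180 on the minus strand. All values are over whole genes.

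Bulk libraries held 14.9 to 24.1 M estimated counts. The mitochondrially encoded share of counts at 24 h was 25.3 ± 1.07% for shams and 23.1 ± 1.15% for UNx (SD, n = 6 each). At 48 h it was 14.7 ± 0.580% in shams and 24.3 ± 4.50% in UNx libraries, of which 5 were high and replicate 6 had 15.2%. At 72 h it was 14.5 ± 0.638% and 15.0 ± 0.655%. A score over 180 processed pseudogenes, set to 0 at the mean of the later shams and to 1 at the mean of the 24 h shams, averaged 0.666 in 24 h UNx, 0.509 in 48 h UNx and 0.0636 in 72 h UNx libraries. Each library carries a mouse number of its own in the labels, so the replicates are mice. In whole kidney, fewer cells of a type and less RNA per cell cannot be told apart.

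Plau was the most abundant of the 4 genes per length of exon. In shams of 72 h it stood at 218 ± 37.5 counts per M and kilobase of exon, against 8.73 ± 3.63 for Plat, 1.22 ± 0.455 for Plaur and 1.46 ± 0.152 for Serpine2 (SD, n = 6). The order of the upper 2 held at each time, and Plaur and Serpine2 lay within their spread of each other at 72 h.

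At 24 h, Plau in the 6 shams ranged from 267 to 421 counts per M of TMM-scaled library size (CPM), with a median of 340 CPM. In the 6 UNx libraries it ranged from 184 to 305 CPM, with a median of 246 CPM. The groups overlapped, with all 6 UNx libraries under the sham mean, and the fitted log2 difference was -0.48 (SE 0.114). At 48 h, shams ranged from 293 to 556 CPM (median 363) and UNx libraries from 152 to 212 CPM. All 48 h UNx libraries lay under all shams, at a log2 difference of -1.02 (SE 0.140), where 4.81% of all genes at 48 h had UNx libraries all below the shams. These are the values that chose the gene. UNx replicate 6, the 48 h library without the high mitochondrial share, had 197 CPM of Plau, inside the range of the other 5 UNx libraries.

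At 72 h, which had no part in the choice, Plau was again lower after nephrectomy. The 6 shams ranged from 418 to 653 CPM (median 504; mean 515 ± 88.7, SD) and the 6 UNx libraries from 308 to 407 CPM (median 335; mean 343 ± 35.2, SD). The highest UNx library, replicate 2 at 407 CPM, lay under the lowest sham, replicate 1 at 418 CPM, so the groups did not overlap, though the gap was narrow. The fitted level in UNx was 0.665 of that in shams, a log2 difference of -0.59 (SE 0.106, adjusted p = 0.0140 in edgeR's quasi-likelihood test, lower in 6 of 6 libraries). Plau was the 1 member of 4 called at 72 h, where 1.71% of 14556 genes were called, 0.502% of them in the lower direction, and where 0.749% of genes had all UNx libraries below all shams. Of the 8 proximal tubule markers and the 4 thick ascending limb markers, none was called at 72 h, and the summed thick limb markers ranged from 5868 to 7471 CPM in shams and from 6255 to 7886 CPM in UNx libraries. The summed proximal tubule markers ranged from 13031 to 17407 CPM in shams and from 13776 to 17239 CPM in UNx libraries.

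The mean sham level of Plau was higher at each later time, but the 24 h shams are of another batch, so time and batch cannot be told apart there. The mean was 341 ± 52.2 CPM at 24 h, 385 ± 96.4 CPM at 48 h and 515 ± 88.7 CPM at 72 h (SD, n = 6), each scaled within its time point. Between the 72 h and 48 h shams, which share a batch, the log2 difference of Plau was 0.27 (SE 0.151, adjusted p = 0.806). That edgeR comparison called 0 of 14561 genes, and the unadjusted p was under 0.05 for 959.

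**Figure D1:**
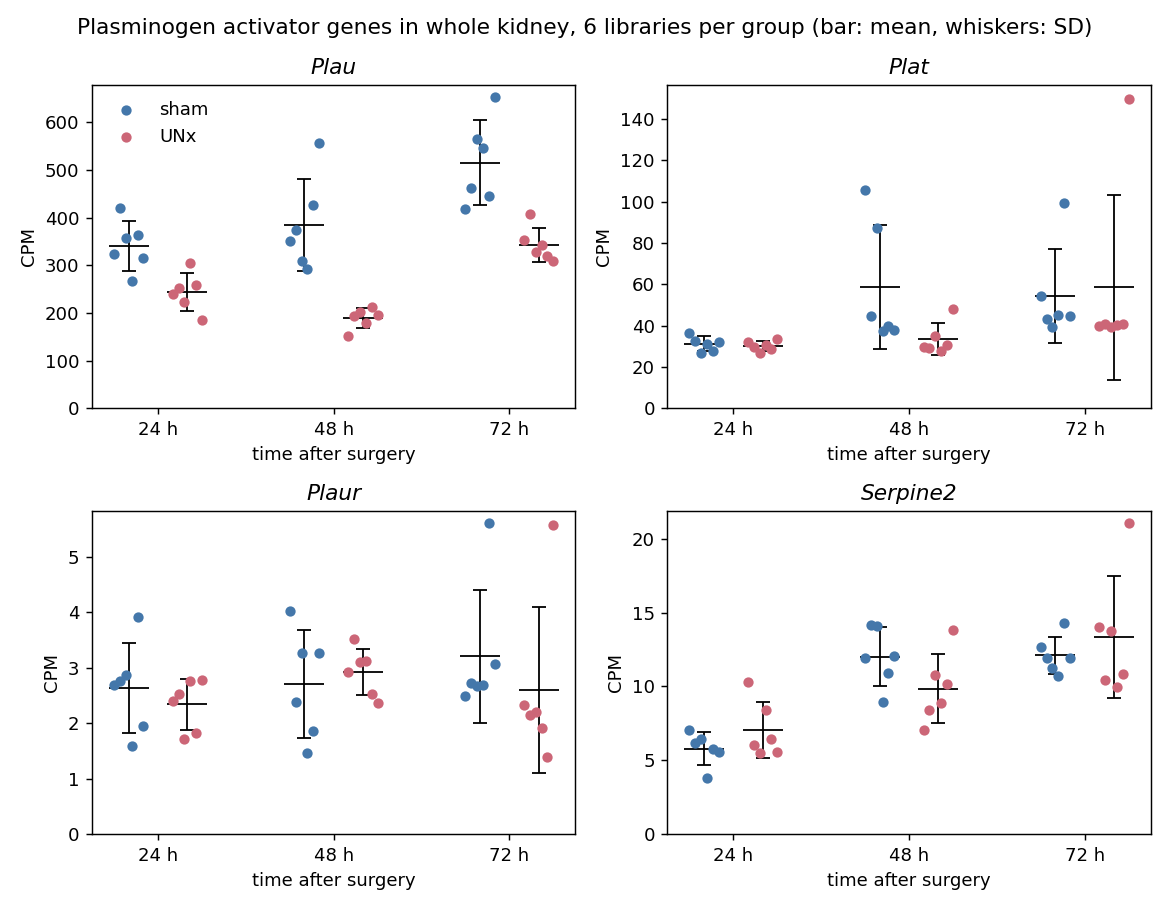
CPM (y axis, from 0) of the 4 members in each bulk library by time after surgery (x axis), with shams in blue and UNx in red, the mean as a bar and the SD as whiskers (n = 6 per group). Plau lies lower in UNx at each time and does not overlap at 48 and 72 h, while single libraries set the spread of Plat, Plaur and Serpine2 at 72 h.

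Plat, the other activator, did not pass the test at 72 h. The 72 h shams had 54.5, 43.3, 39.3, 45.3, 99.6 and 44.9 CPM in replicates 1 to 6, and the UNx libraries 40.0, 41.0, 39.5, 40.5, 41.0 and 149.7 CPM. UNx libraries 1 to 5 lay between 39.5 and 41.0 CPM, and only UNx replicate 6 and sham replicate 5 stood far above the rest. The log2 difference was 0.11 (SE 0.359, adjusted p = 0.916), and without UNx replicate 6 it was -0.43 (SE 0.202, adjusted p = 0.211). At 48 h the shams had 105.8, 44.8, 87.4, 37.3, 39.9 and 38.0 CPM and the UNx libraries between 27.8 and 48.3 CPM, with a log2 difference of -0.81 (SE 0.266) as a description. It was -0.17 (SE 0.502) with the mitochondrial share as a covariate and -0.28 (SE 0.596) with UNx replicate 6 alone against the shams. At 24 h all 12 libraries lay between 26.6 and 36.7 CPM.

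The 4 bulk libraries with the highest Plat, at 87.4 to 149.7 CPM, were also the 4 with the highest Aqp2, the water channel of collecting duct principal cells. They had 343 to 549 CPM of Aqp2, against 35.8 to 278 CPM in the other 32 libraries, in which Plat ranged from 26.6 to 54.5 CPM. The summed 4 principal cell markers (Aqp2, Aqp3, Scnn1g, Avpr2) were 515 to 756 CPM in these 4 libraries and 135 to 470 CPM in the other 32. The 4 libraries comprised 3 shams and 1 UNx kidney. The library with the next highest Aqp2, UNx replicate 2 of 48 h at 278 CPM, had 29.4 CPM of Plat. The part of collecting duct content in the Plat differences was not tested.

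**Figure D2:**
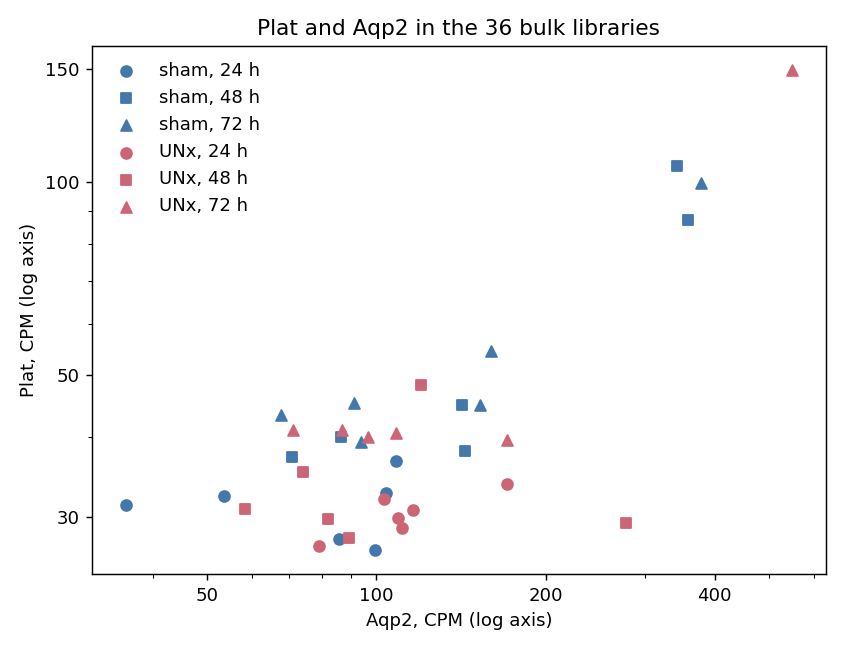
Plat (y axis, CPM, log axis) against Aqp2 (x axis, CPM, log axis) in the 36 bulk libraries, with color for the arm and symbol for the time. The 4 points at the upper right, 3 sham and 1 UNx, have Plat of at least 87.4 CPM and Aqp2 of at least 343 CPM.

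Plaur, the urokinase receptor, averaged 2.34 to 3.20 CPM over the 6 groups of bulk libraries. At 72 h the shams had 2.48, 2.72, 2.67, 2.68, 5.60 and 3.06 CPM and the UNx libraries 2.32, 2.15, 2.21, 1.90, 1.39 and 5.57 CPM. The 2 high libraries were those in which Plat was high, and with all libraries kept the groups overlapped. The log2 difference was -0.30 (SE 0.310, adjusted p = 0.679), and without UNx replicate 6 it was -0.68 (adjusted p = 0.0942). As a description, the log2 difference at 24 h was -0.16 (SE 0.202), with 1.59 to 3.92 CPM in shams and 1.72 to 2.78 CPM in UNx libraries, and at 48 h it was 0.11 (SE 0.222), with 1.46 to 4.03 CPM in shams and 2.36 to 3.51 CPM in UNx libraries.

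Serpine2, the inhibitor also known as protease nexin 1, averaged 12.1 ± 1.26 CPM over shams and 13.3 ± 4.15 CPM over UNx libraries at 72 h (SD, n = 6). Its highest value, 21.0 CPM, was again in UNx replicate 6, the groups overlapped, and the log2 difference was 0.14 (SE 0.162, adjusted p = 0.713). Without that library it was -0.04 (adjusted p = 0.867). As a description, shams and UNx libraries averaged 5.79 and 7.04 CPM at 24 h, and 12.0 and 9.85 CPM at 48 h.

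The other 49 listed genes of the system take in the proteases that start it, plasminogen receptors, clearance receptors, further inhibitors and substrates. At 72 h, 0 of the 41 tested were called in edgeR, with a median log2 difference of 0.03 against -0.0042 over all genes, where 2515 genes had an unadjusted p under 0.05. DESeq2 called 3 of them and limma voom with sample weights 4. Over the alternatives at 72 h, all genes called numbered from 99 to 809, against 249 in the main fit. The number for DESeq2 or voom alone is not given here, so their pathway calls are not read as an excess. The gene nearest to a call was Itgav, an integrin subunit that binds vitronectin, at -0.21 (SE 0.0491, adjusted p = 0.0517), with UNx libraries all below the shams.

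At 24 h, 3 of 40 tested pathway genes were higher and 2 lower, where 27.3% of all genes were called, and the median was 0.07 against 0.0054 over all genes. Thbd, which encodes thrombomodulin, rose from 14.4 ± 2.81 to 21.6 ± 0.987 CPM (log2 0.58, SE 0.101, adjusted p = 0.000938 in edgeR). Eno1, a glycolytic enzyme that also binds plasminogen at the cell surface, rose by 0.62 on the log2 scale (SE 0.0694), and the integrin subunit gene Itgb3 by 0.62 (SE 0.161). Hpn, a membrane serine protease, fell by 0.17 (SE 0.0554), and Lrpap1, the chaperone of LDL-family receptors, fell by 0.18 (SE 0.0566).

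At 48 h, 4 of 40 tested pathway genes were higher and 8 lower, where 32.9% of all genes were called, and the median was -0.18 against -0.04 over all genes. Among the genes that fell were 3 clearance receptors, Lrp2 (megalin) by 0.46 (SE 0.107), Vldlr by 0.41 (SE 0.0660) and Sorl1 by 0.42 (SE 0.117) on the log2 scale. Plgrkt, a plasminogen receptor, fell by 0.44 (SE 0.131) and Itgav by 0.43 (SE 0.0783). Of growth factors that plasminogen activators or plasmin are known to process, Hgf fell by 0.91 (SE 0.324) and Pdgfc by 0.52 (SE 0.10), while Tgfb1 rose by 0.68 (SE 0.156). The inhibitor Serpini1 fell by 0.63 (SE 0.231). Hpn rose by 0.33 (SE 0.0715), S100a10, part of a plasminogen receptor complex, by 0.30 (SE 0.0816) and Eno1 by 0.22 (SE 0.0641). With the mitochondrial share as a covariate, none of the 48 h pathway genes was called. That share itself differed between the arms at 48 h, at 14.7% in shams and 24.3% in UNx libraries. The number of all genes called in that fit is not given here, so the absence of calls is not read as a result about the pathway. Counts of all genes called also shifted widely over the alternatives, as given below.

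Plg, which encodes plasminogen, was below the count filter at all times, at 0.427 ± 0.153 CPM for shams and 0.281 ± 0.219 CPM for UNx at 72 h.

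The deposited nucleus table held 16500 nuclei in 30 annotated cell classes, of which 23 had at least 10 nuclei in each of the 4 mice. Class names are those of the deposited annotation. The thick limb markers Slc12a1, Umod, Kcnj1 and Egf were highest in the classes MTAL, CTAL1 or CTAL2, and proximal tubule markers in PTS1, PTS2 or PTS3. Of the principal cell markers, Aqp2 and Avpr2 were highest in MPC, Aqp3 in CPC and Scnn1g in CNT. The sham mice gave 5342 and 2641 nuclei with medians of 7581 and 9909 UMIs, and the UNx mice 5151 and 3366 nuclei with medians of 8370 and 8063 UMIs. Between libraries, 18 barcodes were shared by 36 nuclei.

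Plau was highest in the 3 thick limb classes, the thin limb class DTL1 and the late proximal tubule class PTS3. The other thin limb classes had lower means, 109 UMIs per M in DTL2, 58.9 in DTL3-ATL and 29.0 in ATL. In MTAL, the sham mice had 387 and 296 UMIs per M and the UNx mice 295 and 253 UMIs per M, a mean of 307 ± 56.7 (SD, n = 4). DTL1 followed with a mean of 231 ± 76.3, CTAL2 with 222 ± 53.9, CTAL1 with 211 ± 62.6 and PTS3 with 173 ± 90.4 UMIs per M. No neighbours in this order differed beyond the spread of the 4 mice. The 3 proximal tubule classes held 46.4% of all Plau UMIs and the 3 thick limb classes 39.0%. PTS3 held 27.1%, PTS2 13.1% and PTS1 6.20%, and most PTS1 values and the batch 4 PTS2 values lie in the background range given below. These shares also depend on how many nuclei and UMIs each class gave, so they do not rank the classes by level.

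Distal, collecting duct and endothelial classes were used to gauge how much Plau RNA a nucleus could carry from other cells. Whether these classes make Plau of their own was not tested. In DCT the batch 3 mice had 4.78 UMIs per M (sham) and 1.38 (UNx), whereas the batch 4 mice had 61.5 (sham) and 52.0 (UNx). Over DCT, CNT, ICB, CPC and MPC, levels ran from 1.38 to 15.0 UMIs per M in batch 3 and from 20.5 to 61.5 in batch 4. In the endothelial class EC1 they were 17.6 (sham) and 11.2 (UNx) in batch 3 and 83.4 and 66.5 in batch 4, and in EC2 34.3 and 17.6 in batch 3 and 57.9 and 51.1 in batch 4. Values up to the highest of these in a batch are read as background, 34.3 UMIs per M in batch 3 and 83.4 in batch 4. MTAL, DTL1, CTAL1, CTAL2 and PTS3 stood above it in all 4 mice, PTS3 narrowly in the UNx mouse of batch 4, at 89.8 UMIs per M.

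**Figure D3:**
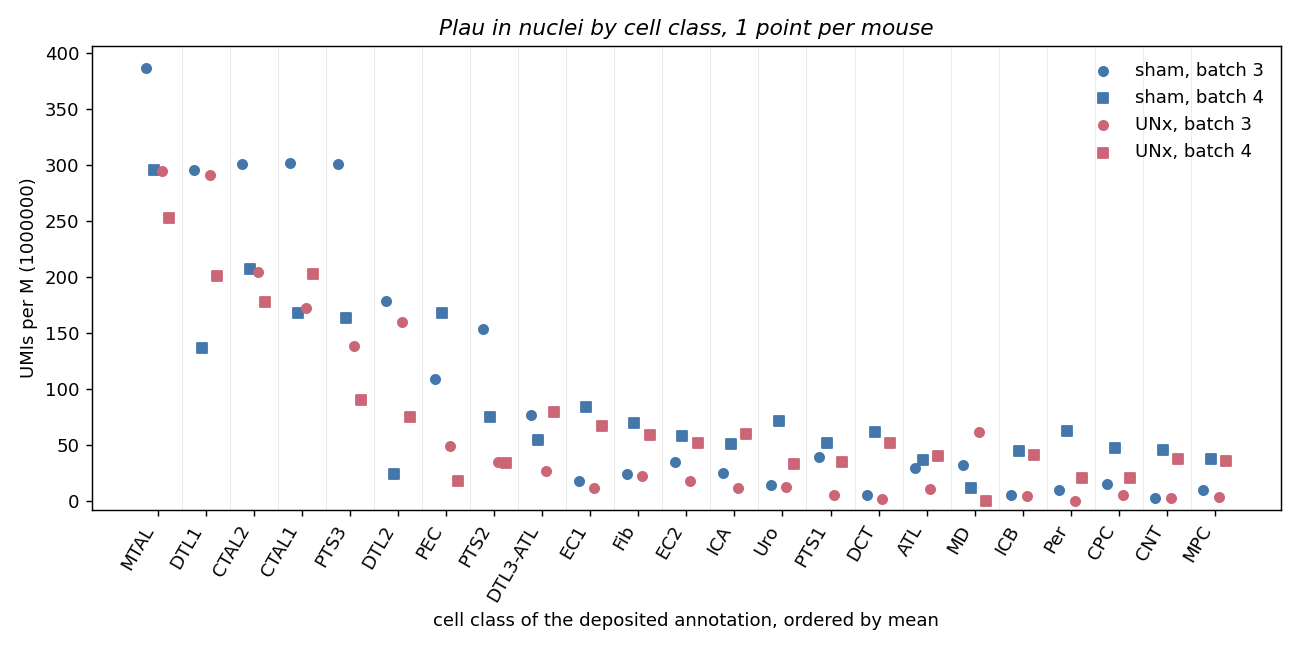
Plau in UMIs per M (y axis) for the 23 tested classes, ordered by mean (x axis), with 1 point per mouse, color for the arm and symbol for the batch. MTAL is highest at 253 to 387, and in distal classes such as DCT the batch 4 mice (squares) stand above the batch 3 mice (circles).

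Within classes, Plau was lower in UNx mice in PTS3 and PTS2, 2 proximal tubule classes, when the batch was taken into account, and in no class did it pass without that. In PTS3, sham mice had 301 UMIs per M (batch 3) and 163 (batch 4), and UNx mice 138 and 89.8, so both UNx mice lay under both shams. How often other genes separate in this way with 2 mice per arm was not counted, here or below. The log2 difference was -1.04 (SE 0.438, adjusted p = 1.00 in edgeR without a block). With the batch as a block it was -0.996 (SE 0.158, adjusted p = 0.00870), where 2.38% of genes in PTS3 were called. The pair of batch 3 gave -1.19 and that of batch 4 -0.79. Without the batch 3 sham the difference, with no block, was -0.46 (SE 0.409).

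In PTS2, sham mice had 154 and 74.8 UMIs per M and UNx mice 34.3 and 33.5. Both UNx mice lay under both shams, and the log2 difference was -1.75 (SE 0.420, adjusted p = 1.00). With the block it was -1.68 (SE 0.222, adjusted p = 0.00234), where 3.05% of genes in PTS2 were called. The batch 3 pair gave -2.16 and the batch 4 pair -1.12, and without the batch 3 sham the difference, with no block, was -1.11 (SE 0.351). In batch 4 both PTS2 values lie inside the background range, and in batch 3 the sham stands above it while the UNx value is level with its upper end, so the size of the difference is limited by it.

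Shares of nuclei with a Plau UMI were lower in both UNx mice than in both shams in PTS3, PTS2 and MTAL. After each nucleus was thinned to 1500 UMIs, 34.7% and 16.6% of PTS3 nuclei of sham mice held a Plau UMI, against 16.3% and 10.3% in UNx mice. In PTS2 the shares were 20.0% and 9.26% in shams and 4.29% and 2.71% in UNx, and in MTAL 37.3% and 37.3% in shams and 30.1% and 31.1% in UNx. In DCT they were 0.629% and 5.70% in shams and 0.398% and 7.18% in UNx, so the batch 4 share of PTS2 in UNx lies under that of DCT. Before thinning, the PTS3 shares were 85.5%, 73.5%, 62.7% and 51.1% and the DCT shares 3.46%, 33.8%, 1.20% and 31.3% in the same order, at median depths of 11105 to 14944 UMIs in PTS3 and 7693 to 10413 in DCT.

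In PTS1, where 1.64% of genes were called with the block, sham mice had 38.8 and 51.3 UMIs per M and UNx mice 4.74 and 34.2, and of these only the batch 3 sham stands above the background range. The log2 difference was -1.17 (SE 0.946) and did not pass the test, with or without the block (adjusted p = 0.134 with it).

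In the thick limb the differences were smaller and none passed the test. MTAL gave -0.26 (SE 0.228), CTAL2 -0.37 (SE 0.268) and CTAL1 -0.28 (SE 0.348), with adjusted p of 0.628, 0.584 and 0.810 under the block. DTL1 gave 0.19 (SE 0.465). PEC had the lowest fitted difference of all classes, -1.96 (SE 0.610, adjusted p = 0.541 under the block), on 3 to 24 UMIs per mouse. Of 21 classes in which Plau passed the count filter, 18 had a fitted difference below 0. The classes share the same 4 mice, and several hold Plau at the background level, so they are not separate support. Other genes were not counted in this way. A test of the difference between classes, chosen after these values were seen, set the UNx effect in the summed proximal tubule classes against that in the summed thick limb classes of the same mice. It gave -0.79 on the log2 scale (SE 0.223, adjusted p = 1.00 over 17274 genes in edgeR, where 0% were called). PTS2 against MTAL gave -1.34 (SE 0.343, adjusted p = 1.00) and PTS3 against MTAL -0.70 (SE 0.369, adjusted p = 1.00), so a larger effect in proximal tubule was not called.

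**Figure D4:**
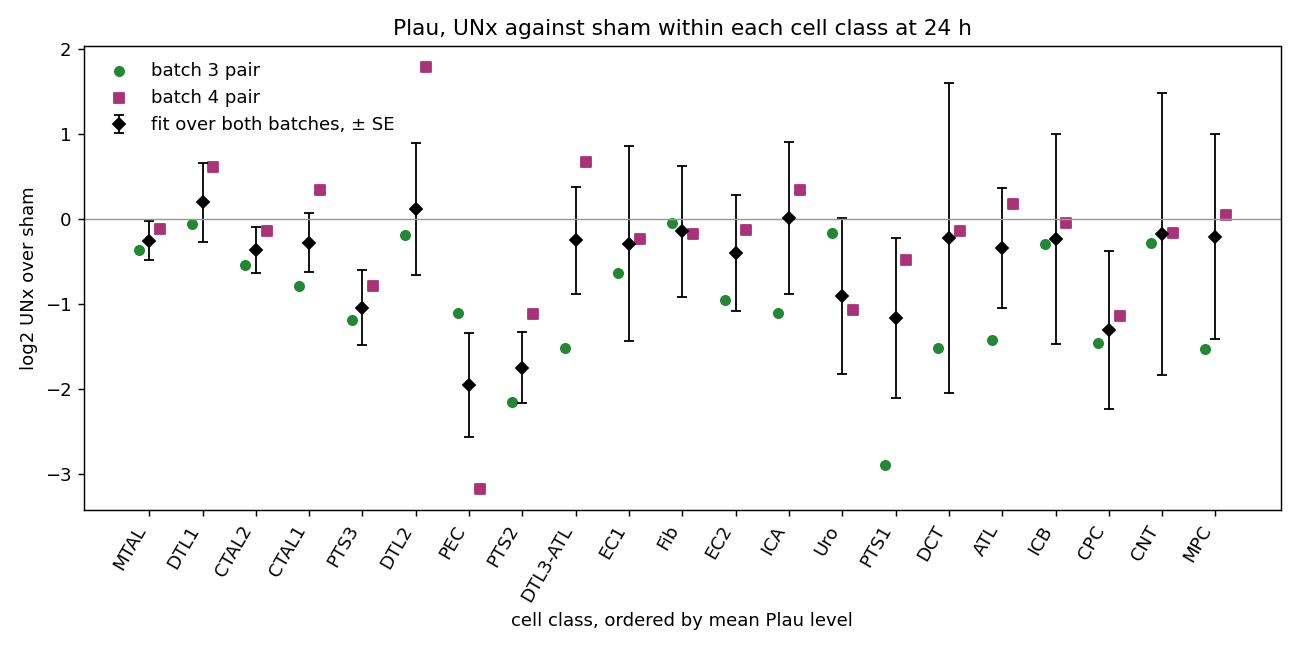
The log2 difference of Plau, UNx against sham (y axis), within each of the 21 classes where it was tested (x axis, ordered by mean level), as the fit without a block with its SE (black) and for each batch pair (green and purple). PTS3 and PTS2 lie below 0 in both batches, at -1.19 and -0.79 and at -2.16 and -1.12, and MTAL at -0.37 and -0.12.

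Over all nuclei summed, Plau was 141 and 90.7 UMIs per M in sham mice and 73.2 and 77.7 in UNx mice. The log2 difference was -0.53 (SE 0.242, adjusted p = 1.00, lower in 2 of 2 batch pairs) and did not pass the test with the block either (-0.52, adjusted p = 0.258, where 1.04% of 19976 genes were called). Without the block, edgeR called 0 genes over all nuclei (0%), DESeq2 25 and limma voom 0, and in edgeR the unadjusted p was under 0.05 for 360 genes.

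The other 3 members had other cell distributions. Plat was highest in the endothelial class EC2, where sham mice had 246 and 82.5 UMIs per M and UNx mice 171 and 77.1, and in MPC, where sham mice had 190 and 118 and UNx mice 82.2 and 94.5. In MPC the log2 difference was -0.74 (SE 0.372, adjusted p = 1.00 in edgeR) without the block and -0.70 (adjusted p = 0.292) with it. MPC held 22.4% of all Plat UMIs and EC2 17.6%.

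Plaur was highest in MPC as well, with 95.9 and 42.4 UMIs per M in sham mice and 132 and 61.3 in UNx mice, and this class held 38.7% of its UMIs. The UNx mouse was the higher of each batch pair, but the arms overlapped, and the log2 difference was 0.53 (SE 0.595, adjusted p = 1.00; 0.55, adjusted p = 0.578 with the block). Uro followed with a mean of 42.0 ± 16.6 UMIs per M (SD, n = 4).

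Serpine2 was highest in Fib, with 40.2 and 14.6 UMIs per M in sham mice and 46.1 and 11.8 in UNx mice, and in EC2, with a mean of 25.1 ± 14.6 (SD, n = 4). Of the listed fibroblast markers, Dcn, Col1a1 and Col1a2 were also highest in Fib, whereas Pdgfra was highest in the class Per. The log2 difference of Serpine2 in Fib was 0.10 (SE 0.869). The batch 3 mouse was the higher of each arm. Of 55 tests of a member in a class, 0 passed without the block, where edgeR called 0% of genes in each of the 23 classes. With the block 2 passed, both of Plau, in PTS2 and PTS3. Of all genes, 3.05% were called with the block in PTS2 and 2.38% in PTS3, so 2 of 55 is not read as an excess.

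**Figure D5:**
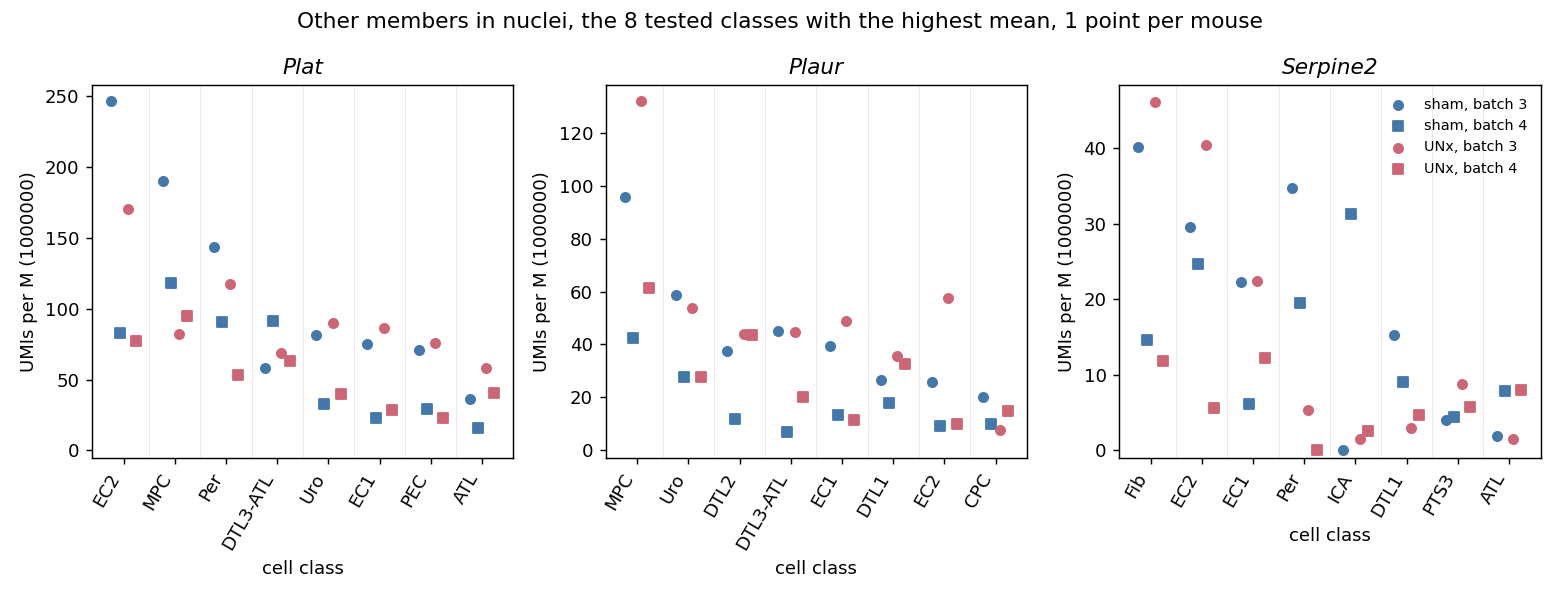
UMIs per M (y axis) of Plat, Plaur and Serpine2 in the 8 tested classes with the highest mean of each (x axis), 1 point per mouse, color for the arm and symbol for the batch. Plat is highest in EC2 and MPC, Plaur in MPC and Serpine2 in Fib, and sham and UNx points overlap in most classes.

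Of the other pathway genes, none was called in the nuclei without the block. With it, 1 of 40 rose over all nuclei, where 1.04% of all genes were called in either direction. This was Pzp, which encodes a broad protease inhibitor of the alpha-2-macroglobulin family (log2 2.05, SE 0.278, adjusted p = 0.0440). Pzp also passed under the block in PTS1 (1.73, SE 0.321), PTS2 (2.19, SE 0.333) and PTS3 (1.89, SE 0.194, adjusted p = 0.000732), where sham mice had 19.3 and 15.1 TMM-scaled CPM and UNx mice 86.2 and 43.9. In whole kidney Pzp averaged 75.5 CPM in shams and 80.5 CPM in UNx at 24 h and was not called at any time. In PTS2 the growth factor gene Pdgfd rose under the block (1.23, SE 0.236, adjusted p = 0.0175), and in PTS3 Itgav fell by 0.73 (SE 0.145, adjusted p = 0.0262). Called pathway genes were thus 1 of 30 tested in PTS1, 2 of 29 in PTS2, and 1 higher and 1 lower of 27 in PTS3. Of all genes, 1.64%, 3.05% and 2.38% were called with the block in these classes. So few calls are not read as a result about the pathway. Plg had 49.0 UMIs in all 4 mice.

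The genes whose level by class was most like that of Plau were Ccdc146 (Pearson r = 0.77), Elfn1 (0.76), Pgbd5 (0.75), Tmbim6 (0.73) and Ncs1 (0.72), over 23 classes that share the same 4 mice. Across the 36 bulk libraries, after the group means had been removed, they were Rab27a (r = 0.73), Csf1r (0.68), Methig1 (0.68), Kyat3 (0.65) and Tspan8 (0.62). For Plat the closest in bulk was Endod1 (r = 0.92) and for Plaur Ehd4 (r = 0.87), and the high libraries described above weigh on both.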

How the data were processed

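The members and the pathway and marker lists were chosen with earlier results of these data known. The authors deposited estimated counts per gene for the 36 bulk libraries, not normalized, and estimated UMI counts for 16500 nuclei with cell classes. The submitters' processing notes name, without settings, Salmon 1.5.0 on GRCm39 for the bulk, with FastQC 0.11.8 and R 4.10, and alevin and Seurat on mm10 for the nuclei. Of the deposited estimated counts, 34.1% (bulk) and 13.9% (nuclei, values above 0) were not whole. All were rounded for testing, for the nuclei after summing per mouse and class. A nucleus had at least 1755 UMIs. Whether doublets were removed is not given in the sources used here. None were called.

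Genes were tested with edgeR 4.0.16 in R 4.3.3 (quasi-likelihood test, filterByExpr, TMM, two-sided, Benjamini-Hochberg over all tested genes, called under 0.05), within each time point or class. The SE is the fold change over the square root of F. The script was tested on simulated data. Alternatives used DESeq2 1.42.0, limma 3.58.1, other filters, covariates, a replicate block and each library left out. Symbols, positions and exon lengths (merged exons) come from GENCODE M21. That annotation is of another build than the bulk table, and it named 28340 of 28467 genes. Replicate pairs differed by at least 5.33 chi-square per gene over 90 pairs, more than sampling noise, so each library counts once.

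In the nuclei, replicate numbers match the labelled batches 3 and 4, and deviations from the group means of same-numbered mice correlated at r = 0.81 over 19976 genes, so the numbers pair the mice. Nucleus levels are UMIs per M of the class's UMIs, and their fits used TMM factors. A nucleus was positive at 0.5 UMI or more. The named genes are the 4 members, called pathway genes with Plg (1 further gene is not reported here), and the 5 genes most like Plau by class (200 UMIs or more) and by library (mean log2 CPM of 3 or more), predicted genes passed over; Itgav at 72 h and the closest genes of Plat and Plaur were named after their values were seen.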

Additional observations from a re-analysis of the deposited data

Results flagged for a closer look

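In 24 groups of 6 libraries (4 members, 3 times, both arms), the highest or lowest value stood apart from the others by more than Dixon's critical share of the range, 0.625, in 6 cases, all of them the highest of their group. Chance flags about 1 in 20 groups. At 72 h, UNx replicate 6 stood apart for Plat at 149.7 CPM, for Plaur at 5.57 CPM and for Serpine2 at 21.0 CPM. Sham replicate 5 of 72 h stood apart for Plat at 99.6 CPM and for Plaur at 5.60 CPM. UNx replicate 6 of 48 h stood apart for Plat at 48.3 CPM. No library stood apart in this way for Plau.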

How the results depend on the processing

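The lower Plau at 72 h kept its direction in 21 alternatives (log2 -0.66 to -0.51) and passed the threshold in 20, at adjusted p from 1.65e-05 to 0.0451. With a replicate block it was -0.58 (adjusted p = 0.0684), but bulk numbers share only a number: same-numbered deviations correlated at r = -0.29 to 0.13, over 0.1 in 0, 0 and 2 of 6 pairs at 24, 48 and 72 h. Left-out libraries gave -0.64 to -0.51 for Plau, -0.43 to 0.37 for Plat, -0.68 to -0.06 for Plaur and -0.037 to 0.21 for Serpine2 at 72 h. Plat at 72 h was -0.13 with voom and -0.049 with the replicate block, and Plaur 0.014 with the mitochondrial share as a covariate. Plau at 24 h was -1.20 (SE 0.250) with the pseudogene score as a covariate; at 48 h its 22 alternatives gave -1.09 to -0.88. Called pathway genes at 24 h, 5 in all, numbered 3 without the filter and with the replicate block, 1 with either covariate and 3 to 6 with libraries left out. Of the 12 at 48 h, voom called 19, either covariate 0, and UNx replicate 6 alone against the shams 0. The 0 at 72 h became 3 with DESeq2, 4 with voom, 1 with the mitochondrial covariate and 0 to 3 with libraries left out. All genes called shifted too, from 84 to 4341 at 24 h, 0 to 6242 at 48 h and 99 to 809 at 72 h over the alternatives. The causes of these shifts were not tested. In the nuclei, 2 of 528 alternatives over 59 member results newly passed, both Plau with the block (PTS2, PTS3), and 86 changed the sign of a difference that was not called. Leaving out the batch 3 sham reduced PTS3 from -1.04 to -0.46 and PTS2 from -1.75 to -1.11. The annotation form with 33 classes separates UNx proximal tubule nuclei, so those classes could not be compared in it. With 2 mice per arm and a background of Plau UMIs in batch 4, small differences were not detectable at this depth.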

Other observations

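In classes with too few nuclei to test, Plat and Serpine2 had levels as high as in any tested class. In the class labelled JG cell, Serpine2 had 299 and 79.3 UMIs per M in sham mice and 323 and 50.1 in UNx mice, from 17, 6, 17 and 9 nuclei and 20.0, 8.00, 27.0 and 5.00 UMIs. Its mean in Fib, the highest tested class, was 28.2 UMIs per M. In the class labelled Podo, Plat had 228 and 135 UMIs per M in sham mice and 197 and 113 in UNx mice, from 21, 57, 2 and 59 nuclei. These counts are small, and the values are given without a test.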
